A study of Mus musculus with 16 samples.

Results

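The effect of losing Sapap3 on striatal RNA was measured here in mice whose striatum had received the astrocyte hM4Di virus and which had been given the hM4Di agonist. The comparison set the 4 KO_hM4D libraries against the 4 WT_hM4D libraries, which are 8 of the 16 libraries of the series, and covered all genes. KO_hM4D mice were knockout for Sapap3 (gene symbol Dlgap3), and WT_hM4D mice were wild type. Both groups received hM4Di AAV into the striatum by microinjection and both received DCZ, so hM4Di and its agonist were present in knockout and wild type alike. Bulk RNA of whole striatum was sequenced, and the series describes 4 mice in each group. The other 8 libraries, KO_tdT and WT_tdT, came from mice with tdTomato AAV and DCZ. They entered the fit, which gave 1 spread estimate for all 4 groups, and their genotype difference is given beside that of the hM4Di groups. The AAV promoter, the knockout allele, the dose and timing of DCZ, and the age and sex of the animals do not appear in the labels, and the series held no group with hM4Di and without DCZ.

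Sapap3 is a scaffold protein of the postsynaptic density that links PSD-95 family proteins to Shank proteins at excitatory synapses, and it is the main Dlgap protein of the striatum. Mice without it groom compulsively and are used as a model of obsessive-compulsive behaviour. hM4Di is a designed receptor made from the human M4 muscarinic receptor. It is activated by DCZ (deschloroclozapine) and couples to the Gi class of G proteins, so an agonist given to the animal turns on Gi signalling in the cells that carry it.

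The labels and the sequenced RNA were checked before the comparison. Total counts were 136604299 to 175318609 in the 8 libraries. For 3 of the 4 WT_hM4D libraries, replicates 2, 3 and 4, the source name gave the knockout group, while the title and the genotype field gave wild type. Title and genotype decided the group, and Dlgap3 levels, given first among the results, separated the libraries in the same way. Transcripts of the sex chromosomes also separated the groups. Xist, the RNA that silences 1 X chromosome in females, stood at 35.2, 30.5, 46.8 and 37.8 CPM (counts scaled to a common library size with TMM factors) in KO_hM4D libraries 1 to 4, against 1.96, 12.8, 1.23 and 22.3 CPM in WT_hM4D libraries 1 to 4. The sum of 4 Y-linked genes (Ddx3y, Eif2s3y, Kdm5d and Uty) was 0.0949, 0.0503, 0.0112 and 0.0418 CPM in KO_hM4D libraries 1 to 4, against 142.3, 128.5, 140.2 and 16.8 CPM in WT_hM4D libraries 1 to 4. All 4 KO_hM4D libraries thus had high Xist with almost no Y-linked RNA, and all 4 WT_hM4D libraries had Y-linked RNA. WT_hM4D libraries 2 and 4 held both kinds, each at 5% or more of the highest library of the series. Whether such a library holds RNA of more than 1 animal was not tested, so the count of 4 animals in WT_hM4D rests on the series' design text. Within these 8 libraries sex-linked RNA and genotype cannot be told apart, and every difference described here is between groups that also differ in that way. The tdT groups each held libraries of both kinds, which allowed fits over all 16 libraries with Xist or with the Y-linked sum as a covariate.

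**Figure D1:**
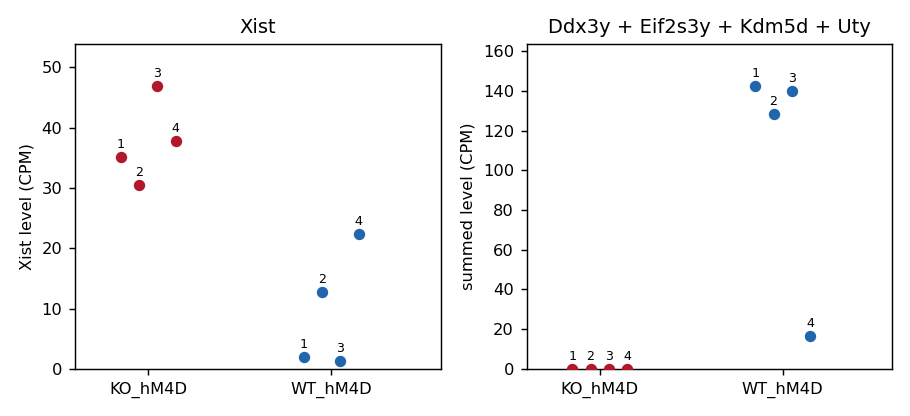
Level of Xist (left) and summed level of 4 Y-linked genes (right) in CPM, 1 point per library, numbered by replicate. The KO_hM4D libraries sit at 30.5 CPM or more for Xist and under 0.1 CPM for the Y-linked sum, while all WT_hM4D libraries have at least 16.8 CPM of Y-linked RNA.

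Of 20825 genes tested, 4 differed between KO_hM4D and WT_hM4D. Dlgap3 itself, Khdrbs1 and Zbtb8a fell, and the pseudogene Gm10093 rose (edgeR quasi-likelihood test, Benjamini-Hochberg adjusted p under 0.05). These 4 are 0.0192% of the genes tested, the 1 higher gene 0.00480% and the 3 lower genes 0.0144%. At an unadjusted p under 0.05 there were 2636 genes, or 12.7%, of which 1249 (6.00%) were higher and 1387 (6.66%) lower in KO_hM4D. All 4 KO_hM4D libraries lay above all 4 WT_hM4D libraries for 568 genes (2.73%) and below them for 701 genes (3.37%). The median log2 change of all genes was -0.01, and the median of the standard errors of single genes was 0.12. DESeq2 called 83 of the genes it tested (0.423%), 25 higher and 58 lower, the same 4 among them. Without WT_hM4D libraries 2 and 4 and the other libraries that held both Xist and Y-linked RNA, edgeR called Dlgap3 alone. An edgeR fit of the 8 hM4Di libraries with replicate number as a block called 1232 genes, 739 higher and 493 lower, the same 4 among them. The labels do not say what the replicate numbers share, and that fit is described in the last section.

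The targeted gene was the clearest difference. Dlgap3 (chr4:127169204-127237022, plus strand, GRCm38) stood at 167, 165, 153 and 153 CPM in KO_hM4D libraries 1 to 4, against 429.6, 414, 377 and 346 CPM in WT_hM4D libraries 1 to 4. The groups did not overlap and the lowest wild-type library had more than double the level of any knockout library. Means were 159 ± 7.47 CPM in KO_hM4D and 392 ± 37.4 CPM in WT_hM4D (SD, n = 4 each), so that the knockout level was 40.7% of wild type, with a log2 change of -1.30 (SE 0.10) and an adjusted p of 6.66e-06. The remaining counts lie on the Dlgap3 gene as a whole, and which exons they cover was not examined. Dlgap3 was called under all 18 alternative settings, including the covariate fits. With the tdTomato virus the log2 change was -1.23, and the difference between the 2 genotype effects was -0.07 (SE 0.13, adjusted p = 0.934).

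The other members of the Dlgap family, which bind the same partners, did not pass the test. Dlgap1 stood at 352, 443, 374 and 376 CPM in KO_hM4D libraries 1 to 4, against 282, 450.0, 289 and 281 CPM in WT_hM4D libraries 1 to 4. The groups overlapped, because WT_hM4D library 2 had the highest level of all 8. Its log2 change was 0.25 (SE 0.19, adjusted p = 0.595). Log2 changes were 0.07 (SE 0.06) for Dlgap2 and 0.12 (SE 0.11) for Dlgap4. Of the 16 Dlgap, Shank, Dlg and Homer scaffold genes tested, 10 were higher and 6 lower, 1 was called (Dlgap3), and the median log2 change was 0.08. Shank1, a scaffold that binds the C-terminal end of Dlgap proteins, had 159, 171, 151 and 137 CPM in KO_hM4D and 81.8, 149, 84.7 and 89.5 CPM in WT_hM4D, a log2 change of 0.61 (SE 0.22, adjusted p = 0.324). Its level in WT_hM4D library 2 lay inside the knockout range and the other 3 wild-type libraries lay below it. Shank3, the main Shank of striatal projection neurons, averaged 168 ± 13.6 CPM in KO_hM4D and 153 ± 4.02 CPM in WT_hM4D (SD, n = 4 each), a log2 change of 0.14 (SE 0.06). Counts on mouse Chrm4, the M4 muscarinic receptor gene, stood at 84.9, 65.2, 85.1 and 70.2 CPM in KO_hM4D libraries 1 to 4, against 85.8, 92.8, 80.2 and 85.0 CPM in WT_hM4D libraries 1 to 4, with a log2 change of -0.17 (SE 0.15, adjusted p = 0.64). The groups overlapped, and how many reads of the human-derived hM4Di transgene were counted on this gene is not known.

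Both other protein-coding genes that were called lie on the chromosome of Dlgap3, a little over 2 Mb away. Khdrbs1 (chr4:129703164-129742303, minus strand), which encodes the RNA-binding splicing regulator Sam68, had 79.1, 65.2, 73.8 and 63.2 CPM in KO_hM4D libraries 1 to 4, against 107, 89.3, 106 and 102 CPM in WT_hM4D libraries 1 to 4. Its log2 change was -0.52 (SE 0.08, adjusted p = 0.0484), and with the tdTomato virus it was -0.41. Zbtb8a (chr4:129353628-129378116, minus strand), a zinc finger protein with a BTB domain, had 6.09, 5.19, 5.09 and 5.23 CPM in KO_hM4D libraries 1 to 4, against 9.62, 7.64, 9.83 and 8.68 CPM in WT_hM4D libraries 1 to 4. Its log2 change was -0.73 (SE 0.11, adjusted p = 0.0492), and with the tdTomato virus it was -0.65. For both genes the highest knockout library was below the lowest wild-type one. Neither call was firm: Khdrbs1 was called under 8 and Zbtb8a under 10 of 18 alternative settings, with adjusted p up to 0.312 for each, while their log2 changes stayed between -0.59 and -0.47 for Khdrbs1 and between -0.86 and -0.68 for Zbtb8a. Without KO_hM4D library 2, 3 or 4 or WT_hM4D library 1, 3 or 4, neither was called, and without KO_hM4D library 1 Zbtb8a was not. Khdrbs1 was not called with the Xist covariate (adjusted p = 0.0704), with the Y-linked covariate (adjusted p = 0.155) or in the fit of the 8 hM4Di libraries alone (adjusted p = 0.168), while Zbtb8a was called in all 3. Without the libraries that held both kinds of sex-linked RNA neither was called. Among the 336 genes tested within 10 Mb of Dlgap3, 56 (16.7%) had an unadjusted p under 0.05, of which 30 were higher and 26 lower, beside 12.7% of all genes. With the tdTomato virus 13.7% of these neighbours and 8.69% of all genes did. Zbtb8os, beside Zbtb8a and known as an activator of the tRNA ligase complex, was higher in all 4 knockout libraries, at 9.30, 9.96, 10.8 and 10.8 CPM in KO_hM4D and 8.23, 6.78, 7.23 and 6.98 CPM in WT_hM4D, with a log2 change of 0.48 (SE 0.09, adjusted p = 0.112).

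**Figure D2:**
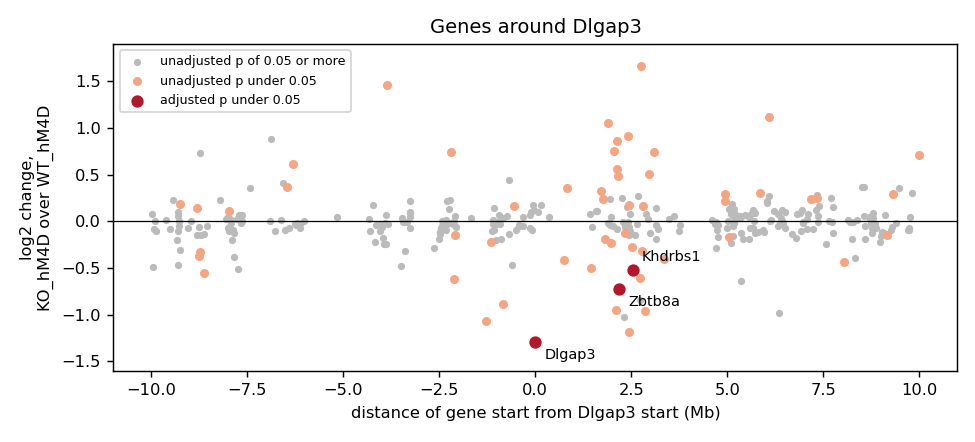
Log2 change of KO_hM4D over WT_hM4D (vertical axis) for genes within 10 Mb of Dlgap3, by the distance of the gene start from that of Dlgap3 in Mb (horizontal axis). The 3 called genes are Dlgap3 at 0, Zbtb8a at 2.18 and Khdrbs1 at 2.53 Mb, and the 56 genes with an unadjusted p under 0.05 lie on both sides of zero change.

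The gene that rose is a near-identical copy of a gene close to Dlgap3. Gm10093 (chr17:78491582-78493025, plus strand) is annotated as a pseudogene. Its raw counts were 108, 182, 279 and 235 in KO_hM4D libraries 1 to 4, against 3, 18, 19 and 13 in WT_hM4D libraries 1 to 4. In CPM these are 0.683, 1.31, 1.56 and 1.64 CPM in KO_hM4D and 0.0210, 0.131, 0.108 and 0.0801 CPM in WT_hM4D, all 4 knockout libraries being higher, with a log2 change of 3.91 (SE 0.53, adjusted p = 0.017). The fitted change was 2.32 with the tdTomato virus. All 1444 bases of the Gm10093 transcript aligned to Hdac1, a histone deacetylase gene on chromosome 4 at 2.35 Mb from Dlgap3, at 99.4% identity. Reads of 2 such sequences can be assigned to either gene, so the value of Gm10093 is uncertain as a measure of that locus. Hdac1 itself (chr4:129516104-129542713, minus strand) stood at 8.86, 8.81, 8.68 and 8.55 CPM in KO_hM4D and 9.53, 9.66, 9.54 and 9.23 CPM in WT_hM4D. Every knockout library was lower, but the log2 change of -0.12 (SE 0.05, adjusted p = 0.344) did not pass the test. Gm10093 was called under 11 of 18 alternative settings. It was not called without KO_hM4D library 2, 3 or 4 or WT_hM4D library 1, 3 or 4, with adjusted p of 0.0558 to 0.150. Nor was it called without the libraries that held both kinds of sex-linked RNA (adjusted p = 0.229).

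**Figure D3:**
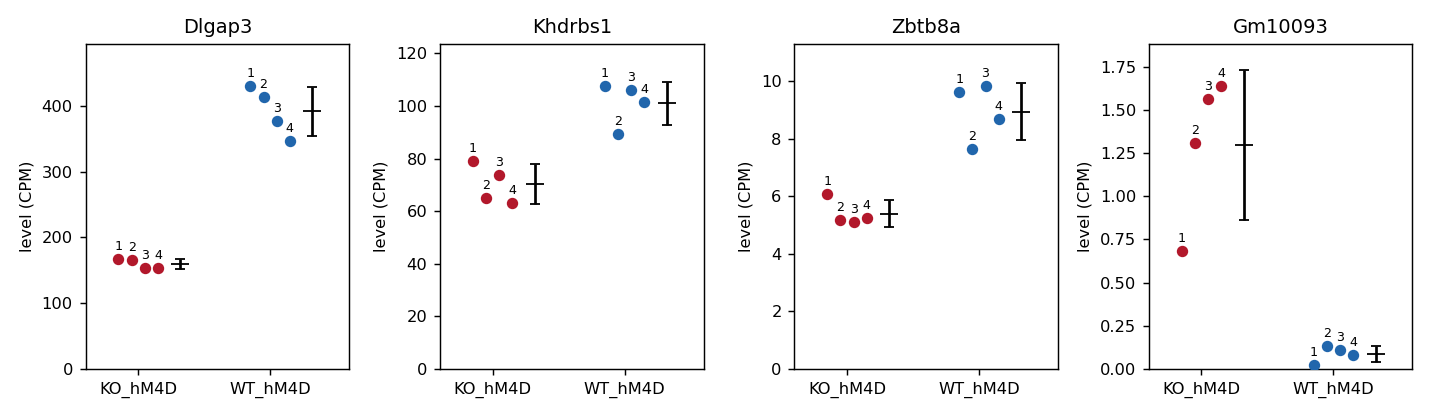
Level in CPM of the 4 called genes, 1 point per library numbered by replicate, with the mean and SD of each group (n = 4) as a bar beside the points. Dlgap3, Khdrbs1 and Zbtb8a are lower and Gm10093 is higher in every KO_hM4D library than in any WT_hM4D library.

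The 21 next genes by p, among those that averaged 1 CPM or more in a group, did not pass the edgeR test (adjusted p 0.112 to 0.307), and they are given as values. DESeq2, run on the same counts, called all 21 at an adjusted p under 0.05. Together with the 4 called genes they make 25, of which 19 were lower and 6 higher in KO_hM4D, 7 lie on chromosome 4, 4 on Y and 2 on X. For 23 of the 25 the libraries of the groups did not overlap, beside 6.09% of all genes. Genes picked by small p in these same libraries tend to show this, so that count is no separate support. The log2 change had the same sign with the tdTomato virus for 20 of the 25. The 4 Y-linked genes were Ddx3y, Uty, Kdm5d and Eif2s3y, which follow the sex-linked RNA described above. The X-linked genes were Smarca1, an ISWI chromatin remodelling ATPase, with a log2 change of -0.25 (SE 0.05), and Rbmx, an RNA-binding protein of the hnRNP G type, with -0.36 (SE 0.08). On the X chromosome 110 of 755 genes tested (14.6%) had an unadjusted p under 0.05, 33 higher and 77 lower, beside 12.7% of all genes. That share was 14.6% on chromosome 9, 15.1% on chromosome 16 and 15.6% on chromosome 19, so the total on X did not stand out.

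Among autosomal genes of this group, Gnai2 is the one closest to the receptor. It encodes an inhibitory G protein alpha subunit of the class that hM4Di uses. Gnai2 stood at 88.8, 82.3, 83.3 and 84.1 CPM in KO_hM4D libraries 1 to 4, against 100.3, 96.3, 98.0 and 101 CPM in WT_hM4D libraries 1 to 4. The libraries did not overlap and the spread within each group was small, with means of 84.6 ± 2.89 CPM in KO_hM4D and 98.9 ± 2.19 CPM in WT_hM4D (SD, n = 4 each). Its log2 change was -0.22 (SE 0.05, adjusted p = 0.247), against -0.02 with the tdTomato virus. Trove2, the Ro60 RNA-binding protein, was as tightly grouped, at 119, 122, 117 and 116 CPM in KO_hM4D and 101, 105, 104 and 105 CPM in WT_hM4D, all 4 knockout libraries being higher, with a log2 change of 0.19 (SE 0.04, adjusted p = 0.215). Slc7a6, an amino acid transporter, had a log2 change of 0.32 (SE 0.06) and Sned1, an extracellular matrix protein, one of -0.37 (SE 0.07), both with libraries that did not overlap. On chromosome 4 but more than 13 Mb from Dlgap3, the log2 change was -0.49 (SE 0.09) for Crocc, the ciliary rootlet protein rootletin, -0.22 (SE 0.05) for Exosc10, a nuclease of the RNA exosome, and 0.26 (SE 0.06) for Ddi2, an aspartic protease. Other log2 changes were -0.30 for Leng8, 0.30 for the lysosomal membrane transporter Mfsd12, -0.21 for the actin motor Myo6 and -1.15 for the gene listed as RP24-161A21.2.

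Beyond single genes, 38 lists of pathway genes and cell type markers were described by their counts and medians, with no test of the list. Dlgap3 was the single list member called. All other members named from here on are values that did not pass the edgeR test over 16 libraries. Those named for small p in their list had adjusted p between 0.112 and 0.793. DESeq2 called 5 of them, Gnai2, Oasl2, Gbp2, Vim and Cxcl10. Btg2 and Csrnp1, named for the interaction, had edgeR adjusted p of 0.849 and 0.859 between the hM4Di groups. Counts of members at an unadjusted p under 0.05 with hM4Di are to be read beside all genes, 6.00% higher and 6.66% lower. In bulk striatum fewer cells of a type and less RNA per cell cannot be told apart. No tested member of any list was at 0 in all 8 libraries.

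Interferon-stimulated genes were lower in knockout than in wild type across nearly the whole list. These genes are switched on when type I or type II interferon activates STAT and IRF factors, and they encode antiviral enzymes, GTPases and RNA sensors. Of 39 tested, 37 had a negative log2 change, 18 had an unadjusted p under 0.05, all lower, and the median was -0.34. Over all genes 6.66% were lower at that p. With the tdTomato virus 21 of the 39 were higher and 18 lower, none had an unadjusted p under 0.05, and the median was 0.00. Oasl2, an oligoadenylate synthetase-like antiviral protein, had 1.96, 1.24, 1.45 and 1.44 CPM in KO_hM4D libraries 1 to 4, against 1.83, 3.12, 2.49 and 4.60 CPM in WT_hM4D libraries 1 to 4. WT_hM4D library 1 lay within the knockout range and the other 3 wild-type libraries lay above it, with a log2 change of -0.98 (SE 0.22, adjusted p = 0.307). Gbp2, an interferon-induced GTPase, had 2.84, 2.04, 2.74 and 2.73 CPM in KO_hM4D and 3.24, 3.68, 4.79 and 4.10 CPM in WT_hM4D, with no overlap and a log2 change of -0.61 (SE 0.14, adjusted p = 0.307). Ifit3, a binding partner of viral-RNA sensors of the IFIT family, had 7.88, 6.84, 7.67 and 6.87 CPM in KO_hM4D and 7.73, 9.41, 9.20 and 13.5 CPM in WT_hM4D, with a log2 change of -0.45 (SE 0.12, adjusted p = 0.316). Again WT_hM4D library 1 was as low as the knockout libraries and WT_hM4D library 4 was the highest. The mean level over the list, as log2(CPM + 0.1), was 0.94, 0.72, 0.87 and 0.78 in KO_hM4D libraries 1 to 4, against 0.87, 1.06, 1.18 and 1.41 in WT_hM4D libraries 1 to 4. WT_hM4D library 1 lay within the knockout range and the other 3 wild-type libraries above it. The median was -0.22 without WT_hM4D library 4, -0.41 with the Xist covariate, -0.51 with the Y-linked covariate and -0.17 without the libraries that held both kinds of sex-linked RNA.

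The promoters of these 3 genes are shown because interferon acts on such genes through a short element there, the interferon-stimulated response element. Each is the RefSeq GRCm38.p6 window from 250 bases before to 50 after the annotated start, on the strand of the gene (all 3 on the plus strand), and capitals mark matches to GAAANNGAAA or its reverse complement TTTCNNTTTC.
Oasl2, chr5:114896684-114896983: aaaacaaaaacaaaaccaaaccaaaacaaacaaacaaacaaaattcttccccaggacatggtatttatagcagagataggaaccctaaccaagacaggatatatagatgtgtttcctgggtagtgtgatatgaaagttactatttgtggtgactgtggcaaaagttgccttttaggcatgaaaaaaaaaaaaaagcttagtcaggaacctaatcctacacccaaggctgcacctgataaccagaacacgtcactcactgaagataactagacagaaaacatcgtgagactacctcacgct
Gbp2, chr3:142620413-142620712: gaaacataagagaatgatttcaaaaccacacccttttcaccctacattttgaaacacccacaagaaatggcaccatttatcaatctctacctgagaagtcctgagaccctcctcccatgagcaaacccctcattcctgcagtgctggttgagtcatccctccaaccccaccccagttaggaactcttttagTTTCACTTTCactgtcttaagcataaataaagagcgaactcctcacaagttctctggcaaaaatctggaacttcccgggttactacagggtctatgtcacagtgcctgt
Ifit3, chr19:34583279-34583578: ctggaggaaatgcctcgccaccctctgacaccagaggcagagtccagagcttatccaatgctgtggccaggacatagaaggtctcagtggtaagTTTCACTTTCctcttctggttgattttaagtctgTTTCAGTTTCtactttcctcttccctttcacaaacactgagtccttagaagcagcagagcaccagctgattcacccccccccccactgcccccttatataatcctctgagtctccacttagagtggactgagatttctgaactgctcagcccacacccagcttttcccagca
The first match begins 59 bases before the start in Gbp2 and 156 bases before it in Ifit3, which holds 2 matches, and the Oasl2 window holds none. Of the 26 list members that were tested and had a window, 17 (65.4%) held a match, against 3.99% of the 27025 genes with a window and 3.44% of all 32851 windows. The median log2 change was -0.34 for the 17 members with a match and -0.26 for the 9 without, so both kinds lay below zero. A match describes the letters of the window and does not show that a factor binds there.

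Antigen presentation genes were lower in the knockout for most members, but the difference rested on part of the wild-type libraries. Of 23 tested, 19 were lower, 6 at an unadjusted p under 0.05, beside 6.66% of all genes. The median log2 change was -0.33, against -0.04 with the tdTomato virus. Their mean log2(CPM + 0.1) was 1.56, 1.53, 1.92 and 1.96 in KO_hM4D libraries 1 to 4, against 1.53, 1.69, 2.64 and 2.14 in WT_hM4D libraries 1 to 4. WT_hM4D libraries 1 and 2 lay within the knockout range and WT_hM4D libraries 3 and 4 above it, and without WT_hM4D library 3 the median was -0.062. Tap1, a peptide transporter of the MHC class I pathway, had a log2 change of -0.46 (SE 0.18), and its chaperone Tapbp had -0.12 (SE 0.05). Ciita, the master activator of MHC class II genes, was near the detection limit at 0.0380, 0.0359, 0.0560 and 0.0487 CPM in KO_hM4D and 0.0631, 0.0509, 0.232 and 0.111 CPM in WT_hM4D.

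Reactive astrocyte genes, which astrocytes raise after injury or inflammation, were also lower. Of 29 tested, 22 were lower and 7 higher, and 11 were lower at an unadjusted p under 0.05 with none higher at that p. For 8 of the 29, beside 3.37% of all genes, the 4 knockout libraries were all lower than the 4 wild-type ones. The summed level was 288 to 422 CPM in KO_hM4D and 452 to 519 CPM in WT_hM4D, so the groups did not overlap. The median log2 change was -0.27 with hM4Di and -0.01 with the tdTomato virus. Vim, an intermediate filament protein of reactive astrocytes, had 21.2, 15.2, 19.9 and 18.9 CPM in KO_hM4D libraries 1 to 4, against 21.8, 26.9, 27.5 and 23.2 CPM in WT_hM4D libraries 1 to 4. The highest knockout library lay just below the lowest wild-type one, with a log2 change of -0.40 (SE 0.09, adjusted p = 0.307). Cxcl10, an interferon-induced chemokine in this list, had 14, 2, 17 and 10 counts in KO_hM4D libraries 1 to 4, against 28, 43, 74 and 71 in WT_hM4D libraries 1 to 4, with a log2 change of -2.31 (SE 0.41, adjusted p = 0.112). Gbp2 is in both lists. The list's median lay between -0.27 and -0.20 in the main fit, both covariate fits and the fit without the libraries that held both kinds of sex-linked RNA.

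General astrocyte markers did not share that direction. Of 26 tested, 14 were higher and 12 lower, 3 and 4 of them at an unadjusted p under 0.05, with a median of 0.02. Gja1, the gap junction protein connexin 43, had 141, 134, 121 and 127 CPM in KO_hM4D and 147, 146, 148 and 162 CPM in WT_hM4D, lower in all 4 knockout libraries, with a log2 change of -0.21 (SE 0.06). Fgfr3, a growth factor receptor of astrocytes, had a log2 change of 0.23 (SE 0.07), and Id4, an inhibitor of bHLH factors, one of -0.43 (SE 0.14). Synaptogenic and matricellular astrocyte genes had a median of 0.03 over 23 members, with 1 higher and 2 lower at an unadjusted p under 0.05. Thbs4, a thrombospondin, averaged 7.39 ± 1.48 CPM in KO_hM4D and 11.5 ± 1.59 CPM in WT_hM4D (SD, n = 4 each), and its log2 change was -0.63 (SE 0.30) with hM4Di and -0.56 with the tdTomato virus. Actin regulation and morphology genes had a median of -0.01 over 45 members, with 2 higher and 4 lower at an unadjusted p under 0.05. Flna, an actin cross-linking filamin on the X chromosome, had -0.29 (SE 0.10) and the membrane linker Rdx had -0.14 (SE 0.05). G protein, cAMP and RGS signalling genes had a median of 0.01 over 44 members. Beside Gnai2, the smallest p in that list belonged to 2 phosphodiesterases that break down cAMP, Pde4d with 0.21 (SE 0.07) and Pde4b with -0.16 (SE 0.06).

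Immune cell and blood transcripts were lower for some cell types and not for others. All 26 microglia markers had a negative log2 change, 7 at an unadjusted p under 0.05, beside 6.66% of all genes. Their median was -0.13 and their summed level 1432 to 1659 CPM in KO_hM4D and 1576 to 1849.6 CPM in WT_hM4D. Without KO_hM4D library 2 the median was -0.075. Ptprc, the leukocyte phosphatase CD45, had -0.31 (SE 0.10), the purine receptor P2ry13 -0.20 (SE 0.07) and the lectin Siglech -0.20 (SE 0.07). Of 21 complement genes, 14 were lower and 7 higher, with a median of -0.09. At an unadjusted p under 0.05, 3 were lower and 2 higher, beside 6.66% and 6.00% of all genes. C4b, a complement component made by astrocytes and oligodendrocytes, had 63.3, 29.9, 66.5 and 63.4 CPM in KO_hM4D and 69.7, 81.2, 93.9 and 92.1 CPM in WT_hM4D, lower in all knockout libraries, with KO_hM4D library 2 far below the other 3 and a log2 change of -0.59 (SE 0.20, adjusted p = 0.319). The 5 haemoglobin and haem synthesis genes were all lower, 4 at an unadjusted p under 0.05, beside 6.66% of all genes. Their median was -0.42 and their summed level 54.6 to 68.5 CPM in KO_hM4D and 71.1 to 101 CPM in WT_hM4D. Lymphocyte and immunoglobulin transcripts had a median of 0.02 over 15 members, and single libraries of both groups held them. Ighg2b, an immunoglobulin heavy chain, stood at 0.0443, 0.0287, 10.9 and 26.1 CPM in KO_hM4D libraries 1 to 4, against 0.0491, 0.0945, 0.334 and 4.86 CPM in WT_hM4D libraries 1 to 4, high in KO_hM4D libraries 3 and 4 and in WT_hM4D library 4. Perivascular macrophage markers had a median of -0.04, endothelial and mural markers -0.06, and fibroblast markers 0.15. The fibroblast median was 0.0030 without KO_hM4D library 3, 0.31 without WT_hM4D library 2 and 0.093 without WT_hM4D library 3. Cldn5, the tight junction protein of brain endothelium, had -0.26 (SE 0.08), lower in all 4 knockout libraries. The part of these cell types in the lower interferon and reactive lists was not tested.

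Markers of neurons and oligodendrocytes differed between groups and between libraries. Cortical excitatory neuron markers, which check how much cortex a striatal dissection holds, were higher in 13 of 17. At an unadjusted p under 0.05, 6 were higher, beside 6.00% of all genes, and 1 was lower. Their median was 0.38, against -0.02 with the tdTomato virus. Their summed level was 1827 to 2457 CPM in KO_hM4D and 1567 to 2379 CPM in WT_hM4D. Their mean log2(CPM + 0.1) was 5.73, 6.17, 5.83 and 5.90 in KO_hM4D libraries 1 to 4, against 5.40, 5.97, 5.44 and 5.39 in WT_hM4D libraries 1 to 4. WT_hM4D library 2 lay inside the knockout range and the other 3 wild-type libraries below it. The median was 0.62 without that library, 0.72 with the Y-linked covariate and 0.64 without the libraries that held both kinds of sex-linked RNA. Rorb, a layer 4 transcription factor, followed that order at 129, 159, 106 and 109 CPM in KO_hM4D and 76.8, 111, 73.6 and 78.5 CPM in WT_hM4D. Rspo1 had a log2 change of 0.74 (SE 0.24) and Lamp5 one of 0.45 (SE 0.19). Shank1, Grin2a and Dlgap1 were likewise highest among wild-type libraries in WT_hM4D library 2.

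Markers shared by both kinds of striatal projection neuron were lower in 20 of 22, 1 at an unadjusted p under 0.05, with a median of -0.21 with hM4Di and -0.20 with the tdTomato virus. The hM4Di median was -0.12 without WT_hM4D library 1, -0.45 with the Y-linked covariate and -0.36 without the libraries that held both kinds of sex-linked RNA. Their summed level was 8085 to 10348 CPM in KO_hM4D and 8645 to 12975 CPM in WT_hM4D, the highest sum of the neuronal marker lists. The lists differ in size and in the choice of genes, so this order is no check of the striatal label. Their mean log2(CPM + 0.1) was 8.32, 8.02, 8.17 and 8.21 in KO_hM4D libraries 1 to 4, against 8.61, 8.08, 8.45 and 8.35 in WT_hM4D libraries 1 to 4, with WT_hM4D library 2 second lowest of all 8. Arpp21, a cAMP-regulated phosphoprotein of these neurons, had 808, 669, 716 and 733 CPM in KO_hM4D and 1099.6, 768, 952 and 831 CPM in WT_hM4D. Direct pathway and indirect pathway markers both had a median of -0.24, each over 9 members. For the direct pathway it was -0.14 without KO_hM4D library 2 and -0.42 without WT_hM4D library 2, and for the indirect pathway -0.12 without WT_hM4D library 1. Interneuron markers had a median of -0.10 over 18 members, 3 of which were higher at an unadjusted p under 0.05: the potassium channels Kcnc1 with 0.28 (SE 0.10) and Kcnc2 with 0.39 (SE 0.14), and the neuropeptide Vip with 0.85 (SE 0.31). Thalamic, septal and pallidal markers had a median of 0.21 over 20 members, with 1 higher and 3 lower at an unadjusted p under 0.05, against a median of 0.76 with the tdTomato virus. KO_hM4D library 1 alone was high, with a summed level of 826 CPM against 455 to 493 CPM in the other knockout libraries and 479 to 544 CPM in the wild-type ones, and without it the median was -0.25. Without WT_hM4D library 4 it was 0.31, and with the Y-linked covariate 0.0068.

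Myelin and oligodendrocyte genes were lower in all 20 tested, with a median of -0.41. Of these, 4 had an unadjusted p under 0.05, beside 6.66% of all genes. Their mean log2(CPM + 0.1) was 6.97, 6.44, 6.52 and 6.64 in KO_hM4D libraries 1 to 4, against 7.35, 6.67, 7.18 and 7.04 in WT_hM4D libraries 1 to 4. The groups overlapped at WT_hM4D library 2, which was lower than KO_hM4D library 1. Opalin, a myelin membrane glycoprotein, had 15.6, 10.1, 12.8 and 13.7 CPM in KO_hM4D libraries 1 to 4, against 29.8, 19.3, 23.8 and 21.9 CPM in WT_hM4D libraries 1 to 4, with no overlap and a log2 change of -0.86 (SE 0.29, adjusted p = 0.319). Aspa, the enzyme that breaks down N-acetylaspartate in oligodendrocytes, had -0.68 (SE 0.23), and the myelin enzyme Cnp had -0.50 (SE 0.20). With the tdTomato virus 17 of the 20 were lower, with a median of -0.13 and none at an unadjusted p under 0.05. Oligodendrocyte precursor markers were lower in 12 of 14, 6 at an unadjusted p under 0.05, beside 6.66% of all genes, with a median of -0.23. With the tdTomato virus 8 of the 14 were higher and 6 lower, 1 of them lower at that p, with a median of 0.01. Pdgfra, the growth factor receptor that defines these precursors, had 58.8, 53.9, 65.7 and 61.0 CPM in KO_hM4D and 70.6, 65.1, 68.1 and 73.6 CPM in WT_hM4D, and the secreted synaptic protein C1ql1 had a log2 change of -0.44 (SE 0.14). Ependymal and choroid plexus markers were lower in 18 of 20 with a median of -0.31, and -0.30 with the tdTomato virus. Without WT_hM4D library 4 the hM4Di median was -0.18. What part these marker differences have in the values of other genes was not tested.

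**Figure D4:**
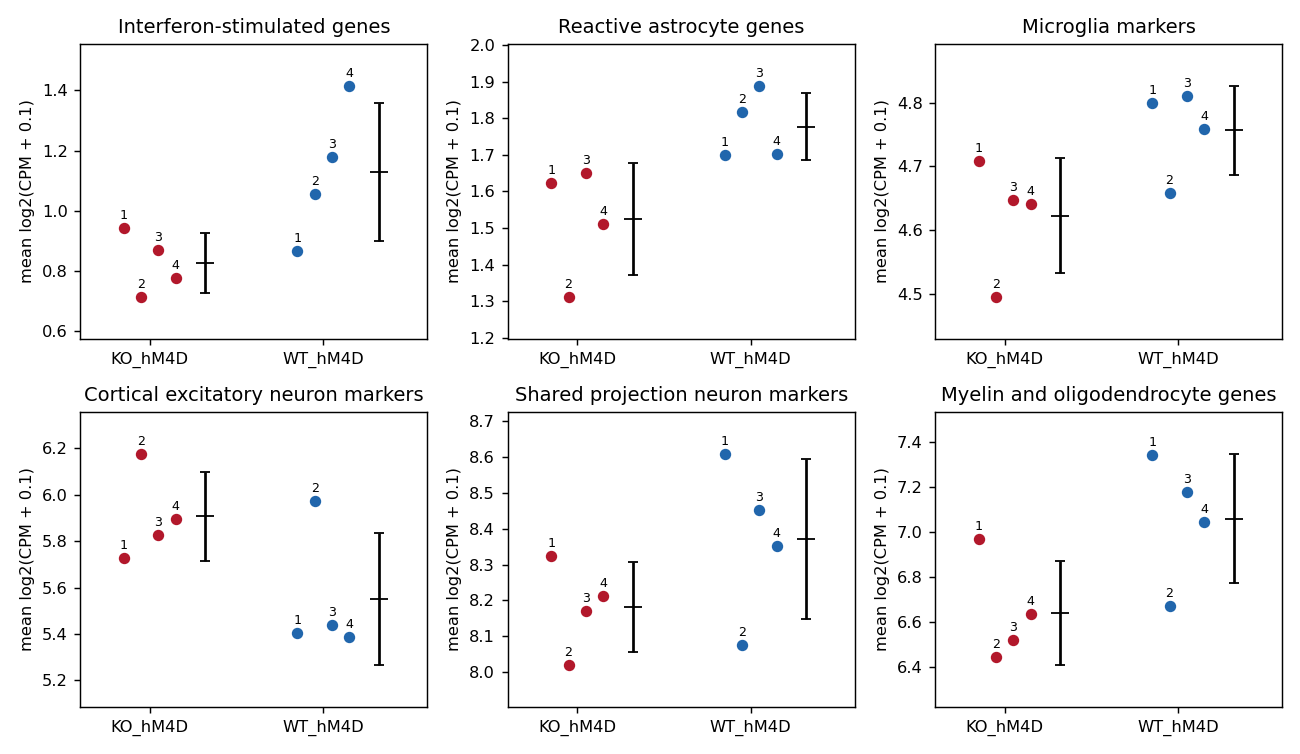
Mean log2(CPM + 0.1) over the tested members of 6 gene lists, 1 point per library numbered by replicate, with the mean and SD of each group (n = 4) beside the points; the vertical axes do not start at 0. Reactive astrocyte genes are lower in every KO_hM4D library, while WT_hM4D library 2 lies among or beyond the KO_hM4D libraries for cortical, projection neuron and myelin genes.

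Among neuronal signalling genes, potassium channels leaned higher in knockout. Of 30 tested, 21 were higher and 9 lower, and 11 were higher at an unadjusted p under 0.05 with none lower, beside 6.00% of all genes. Their summed level was 4701 to 5026 CPM in KO_hM4D and 4434 to 4526 CPM in WT_hM4D, so the groups did not overlap. The median log2 change was 0.11, and with the tdTomato virus it was 0.02, with 5 higher and 3 lower at that p, where 3.92% of all genes were higher. Kcna2, a delayed rectifier of axons, had 544, 606, 434 and 443 CPM in KO_hM4D libraries 1 to 4, against 378, 409, 348 and 402 CPM in WT_hM4D libraries 1 to 4. All knockout libraries were higher, with a log2 change of 0.40 (SE 0.12, adjusted p = 0.317). Kcnq3, a subunit of the M-current channel, had 385, 380.2, 393 and 371 CPM in KO_hM4D and 335, 349.7, 332 and 329 CPM in WT_hM4D, also without overlap. Kcnj9, a GIRK channel subunit that Gi-coupled receptors open, had 124, 162, 106 and 120.3 CPM in KO_hM4D and 69.5, 119, 75.5 and 79.3 CPM in WT_hM4D. WT_hM4D library 2 reached the knockout range and the others did not, with a log2 change of 0.58 (SE 0.19).

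Endocannabinoid genes were higher in 8 of 10, 4 at an unadjusted p under 0.05, with a median of 0.10. Napepld, an enzyme that releases anandamide, had 19.2, 19.5, 17.1 and 18.04 CPM in KO_hM4D libraries 1 to 4, against 12.98, 16.1, 13.8 and 13.2 CPM in WT_hM4D libraries 1 to 4, with no overlap and a log2 change of 0.40 (SE 0.13, adjusted p = 0.317). Dagla, which makes the endocannabinoid 2-AG, had 0.25 (SE 0.09), and Mgll, which breaks it down, had 0.22 (SE 0.10). Of 33 glutamate receptor and auxiliary genes, 6 were higher and 1 lower at an unadjusted p under 0.05, and the median was 0.01. Grin2a, the NMDA receptor subunit GluN2A, had 524, 622, 509.8 and 512 CPM in KO_hM4D libraries 1 to 4, against 383, 481, 377 and 389.9 CPM in WT_hM4D libraries 1 to 4. The groups did not overlap, and library 2 was the highest of its group in both, with a log2 change of 0.41 (SE 0.13, adjusted p = 0.317). Grm2, a Gi-coupled glutamate receptor, had 0.92 (SE 0.31) and the kainate receptor subunit Grik4 had 0.22 (SE 0.08). Of 21 GABA genes, 3 were higher at an unadjusted p under 0.05 and none lower, and the median was -0.0017. Gabrb2, a GABA-A receptor subunit, had 0.20 (SE 0.08). Of 22 synaptic adhesion genes 17 were higher, 3 at an unadjusted p under 0.05 with 1 lower at that p, and the median was 0.07. Lrrtm2, a leucine-rich repeat protein of excitatory synapses, had 136, 143, 121 and 129.5 CPM in KO_hM4D and 119, 120.5, 120.2 and 107 CPM in WT_hM4D. Among 21 serotonin and dopamine genes the median was -0.04. Htr2c, a serotonin receptor on the X chromosome, had 26.6, 21.3, 41.7 and 33.7 CPM in KO_hM4D and 46.7, 41.0, 49.4 and 51.0 CPM in WT_hM4D, and the monoamine oxidase Maoa, also X-linked, had a log2 change of -0.25 (SE 0.07). Drd3, a dopamine receptor of the ventral striatum, had 0.880, 0.819, 0.532 and 0.828 CPM in KO_hM4D and 2.09, 0.538, 1.57 and 2.76 CPM in WT_hM4D, with WT_hM4D library 2 as low as the knockout libraries.

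Immediate early genes were evenly split by genotype with hM4Di and mostly lower in the knockout with tdTomato. These genes are transcribed within minutes of neuronal activity or stress. Of 36 tested, 17 were higher and 19 lower, 2 were higher at an unadjusted p under 0.05, and the median was -0.01. Trib1, a pseudokinase, had 0.38 (SE 0.15) and the AP-1 factor Jun had 0.28 (SE 0.13). With the tdTomato virus 32 of the 36 were lower, 23 at an unadjusted p under 0.05, beside 4.77% of all genes, with a median of -0.49. The interaction tests that difference directly, as the genotype effect with hM4Di minus that with tdTomato. At an adjusted p under 0.05 edgeR called 0 genes and DESeq2 called 12. At an unadjusted p under 0.05 there were 1410 by edgeR (6.77%), 684 higher (3.28%) and 726 lower (3.49%). Of the 36 immediate early genes, 15 had an unadjusted p under 0.05 in the interaction. The 5 genes of smallest p in it included Dusp1, a phosphatase of MAP kinases, Btg2, an antiproliferative factor, and Csrnp1, a nuclear transcription factor. Dusp1 had 11.7, 11.3, 10.2 and 8.25 CPM in KO_hM4D libraries 1 to 4, against 9.99, 9.19, 9.18 and 10.4 CPM in WT_hM4D libraries 1 to 4. The hM4Di groups overlapped, with a log2 change of 0.10 (SE 0.13), while it was -0.94 with the tdTomato virus, and the interaction was 1.04 (SE 0.19, adjusted p = 0.407). The interaction was 1.25 (SE 0.23, adjusted p = 0.407) for Btg2 and 0.68 (SE 0.13, adjusted p = 0.407) for Csrnp1. It was 0.82 (SE 0.17, adjusted p = 0.658) for Nr1d1, the clock repressor REV-ERB alpha, and 1.85 (SE 0.38, adjusted p = 0.658) for Gm26783. Gm26783 had only 12 to 28 counts in each hM4Di library. KO_tdT and WT_tdT share no library with the hM4Di groups.

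Clock, stress and metabolic genes mostly lay near zero change. Of 22 circadian clock genes 4 were higher at an unadjusted p under 0.05 and none lower, with a median of 0.08. Bhlhe40, a clock repressor, had 70.8, 91.7, 62.8 and 69.8 CPM in KO_hM4D and 47.8, 60.8, 52.2 and 60.0 CPM in WT_hM4D, with no overlap, and the PAR bZIP factor Hlf had a log2 change of 0.36 (SE 0.12). Glucocorticoid and stress response genes were higher in 17 of 20, 2 at an unadjusted p under 0.05, with a median of 0.16 against -0.12 with the tdTomato virus. For 5 of the 20 all knockout libraries lay above all wild-type libraries, beside 2.73% of all genes. Their summed level was 929 to 972 CPM in KO_hM4D and 786 to 878 CPM in WT_hM4D. Tsc22d3, the glucocorticoid-induced leucine zipper gene GILZ on the X chromosome, had 118, 112, 104 and 111 CPM in KO_hM4D and 83.3, 73.7, 95.2 and 107 CPM in WT_hM4D. Sult1a1, a sulfotransferase, had 11.4, 11.6, 10.6 and 9.32 CPM in KO_hM4D and 6.88, 6.61, 7.36 and 8.37 CPM in WT_hM4D, and the hypoxia factor Hif3a had 3.54, 3.80, 3.03 and 3.61 CPM in KO_hM4D and 2.74, 2.01, 1.91 and 2.51 CPM in WT_hM4D, both without overlap. The median was 0.03 for 20 cytosolic heat shock proteins and -0.02 for 20 endoplasmic reticulum chaperones, where with the tdTomato virus it was 0.14 and 0.18. It was -0.01 for 29 cholesterol genes, -0.01 for 40 nuclear genes of oxidative phosphorylation and -0.06 for 13 mitochondrially encoded genes, with none of the last 2 lists at an unadjusted p under 0.05.

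**Figure D5:**
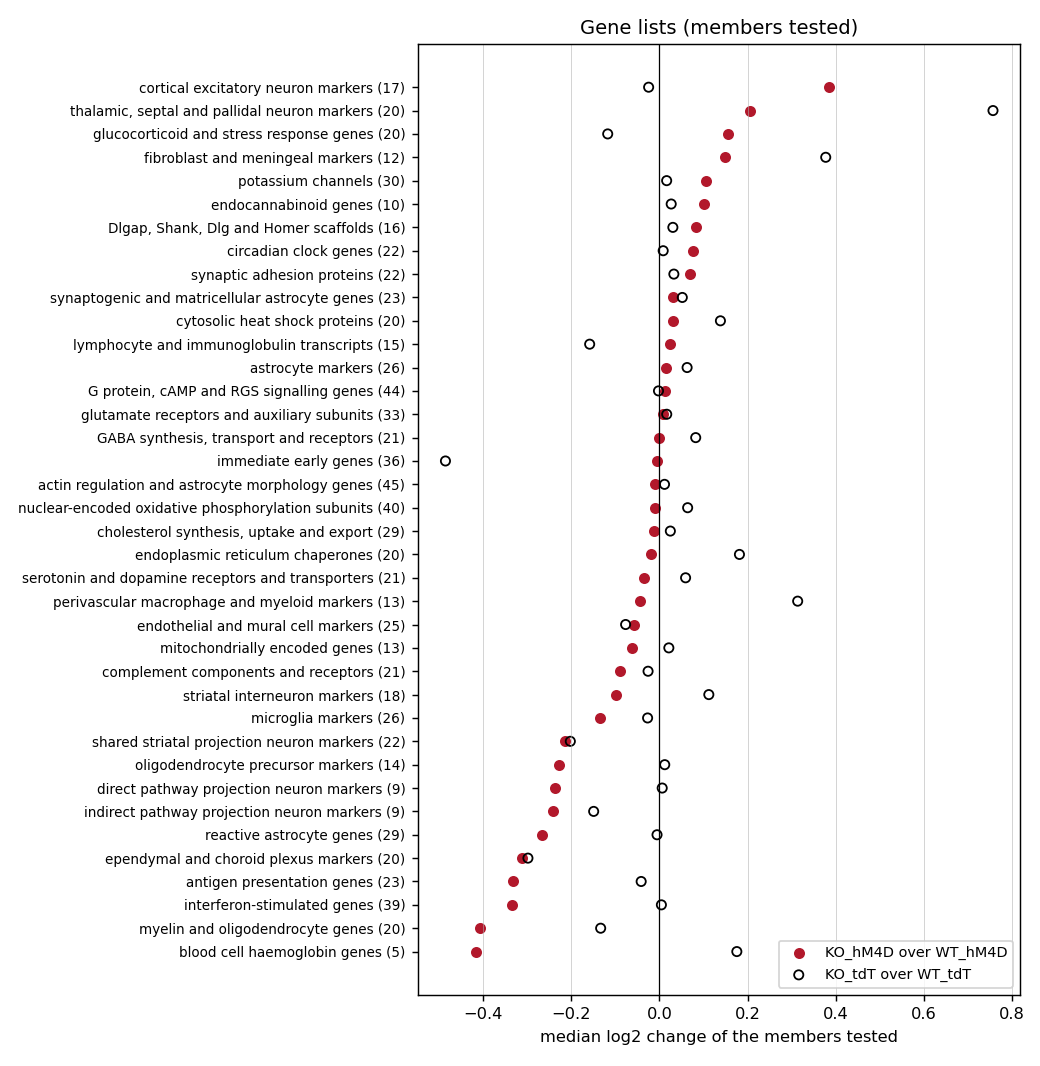
Median log2 change of the tested members of 38 gene lists (number tested in brackets), as filled points for KO_hM4D over WT_hM4D and open points for KO_tdT over WT_tdT. Interferon-stimulated genes lie at -0.34 with hM4Di and 0.00 with tdTomato, and immediate early genes at -0.01 with hM4Di and -0.49 with tdTomato.

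The genotype difference with hM4Di and that with tdTomato were also set side by side over single genes. Of the 2636 genes with an unadjusted p under 0.05 with hM4Di and the 1810 with tdTomato, 240 were in both. That is 9.1% of the first, beside 8.69% of all genes with tdTomato. It is 13.3% of the second, beside 12.7% of all genes with hM4Di. These shares, which take no account of direction, lay close to those of all genes. In direction, however, 200 of the 240 had the same sign and 40 the opposite one. Over all genes 47.46% of log2 changes were positive with hM4Di and 49.89% with tdTomato. The tdTomato comparison called 8 genes (0.0384%), all lower.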

How the data were processed

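Striatal RNA was sequenced as 16 libraries, 4 in each of 4 groups, and the series describes 4 mice in each group. Libraries were made with a stranded, ribosomal-RNA-depleted Illumina kit, per the labels' protocols. bcl2fastq 2.17, STAR and HTSeq, and the genome builds GRCm38 and mm10, are named in the submitters' processing notes; the strand setting of counting is not given in the sources used here. The deposited table holds raw counts of reads for 48795 genes. Of its identifiers, 48435 matched GENCODE M21.

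Genes were filtered with filterByExpr by group (20825 kept), scaled by TMM and tested with edgeR 4.0.16 (R 4.3.3, quasi-likelihood, 12 residual degrees of freedom, biological coefficient of variation 0.127), with 1 coefficient per group over all 16 libraries. Calls needed a Benjamini-Hochberg adjusted p under 0.05; standard errors came from the F statistic. The fit was tested on simulated data. DESeq2 1.42.0, other scalings and filters, covariates, a replicate block and leaving out libraries were tried. The Y-linked covariate was added after the data were seen.

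Members and lists were chosen with earlier results of these data known. Named were the Dlgap genes and Chrm4, called genes, the genes of smallest p up to 25, 3 per list, and the 5 of smallest p in the interaction; Hdac1 was named after its values were seen. Libraries of a group differed by more than sampling noise, and each counted as 1 replicate. Some genes that this rule names are not reported here.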

Additional observations from a re-analysis of the deposited data

Results flagged for a closer look

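Of 282 groups of 4 libraries (141 named genes in each hM4Di group), 32 had a library that lay apart from the other 3 by Dixon's criterion, which chance alone meets in about 1 group in 20. WT_hM4D library 4 was the library in 8 of them, WT_hM4D library 2 in 7, KO_hM4D library 2 in 6, KO_hM4D library 1 and WT_hM4D library 1 in 4 each, KO_hM4D library 3 in 2 and WT_hM4D library 3 in 1.

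WT_hM4D library 4 was low for the Y-linked genes, at 8.83 CPM for Ddx3y, 3.86 CPM for Uty, 2.37 CPM for Kdm5d and 1.76 CPM for Eif2s3y, with the other wild-type libraries at 12.3 CPM or more for each. It was low for Lrrtm2 (106.8 CPM) and high for Gja1 (162 CPM), Arhgap36 (3.68 CPM) and Ighg2b (4.86 CPM).

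KO_hM4D library 2 and WT_hM4D library 2 stood apart for some of the same genes. KO_hM4D library 2 was high for Grin2a (622 CPM) and WT_hM4D library 2 was too (481 CPM), and both were low for Maoa, at 24.4 CPM in KO_hM4D and 30.7 CPM in WT_hM4D. KO_hM4D library 2 was also high for Sel1l (309 CPM) and low for Gbp2 (2.04 CPM), C4b (29.9 CPM) and Rarb (46.5 CPM). WT_hM4D library 2 was also high for Dlgap1 (450.0 CPM), Shank1 (149 CPM), Rorb (111 CPM) and Igfbp2 (21.2 CPM), and low for Id4 (74.9 CPM).

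KO_hM4D library 1 was high for Zbtb8a (6.09 CPM), C1ql1 (4.73 CPM), Tek (8.61 CPM) and Ebf1 (14.5 CPM), and KO_hM4D library 3 for Stab1 (19.2 CPM) and Btg2 (11.2 CPM). WT_hM4D library 1 was high for Myo6 (139 CPM), Hba-a1 (19.4 CPM) and Btg2 (10.8 CPM) and low for Trove2 (101 CPM), and WT_hM4D library 3 was low for Mertk (47.8 CPM).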

How the results depend on the processing

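The count of 4 called genes was 83 with DESeq2, 7 with the 8 hM4Di libraries alone (Ddx3y, Eif2s3y, Kdm5d and Uty added, Khdrbs1 lost) and 1 (Dlgap3) without the libraries that held both Xist and Y-linked RNA. Leaving out 1 library at a time gave 1 to 4. The interaction, with 0 called, had 12 calls with DESeq2 and 1 (Cry1) without the libraries with both kinds of RNA, and leaving out 1 library at a time gave 0.

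Deviations of same-numbered libraries correlated at 0.287, 0.152, 0.091 and 0.133 for replicates 1 to 4. KO_hM4D libraries 1 and 2 correlated best with the wild-type library of their own number. KO_hM4D library 3 correlated best with WT_hM4D library 2 (0.124) and KO_hM4D library 4 with WT_hM4D library 3 (0.193). The rule for pairs needed a correlation of 0.1, which replicate 3 missed at 0.091, so the numbers were not taken as pairs. Whether they mark a shared day or litter is not known, and the calls depend strongly on this choice. With the replicate block over all 16 libraries 4 genes were called, and with the replicate block over the 8 hM4Di libraries 1232 (739 higher, 493 lower). That last fit called list members that the reported fit did not: 16 of 20 myelin genes, 3 of 39 interferon-stimulated genes and 3 of 26 microglia markers lower, 9 of 17 cortical markers higher and 1 lower, 8 of 30 potassium channels higher and 1 lower, and 1 of 29 reactive astrocyte genes higher and 2 lower. The number of genes tested in that fit is not given here, so no share of all genes stands beside these counts. None of these counts is therefore read as a result about its list.

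Of 2534 recomputed values of named genes, 2407 kept direction and side of the threshold, 98 passed it under an alternative, 25 no longer passed it, and 4 turned sign. Btg2 was at 0.10 with the Y-linked covariate and Csrnp1 at -0.0271 without the libraries with both kinds of RNA. Leaving out 1 library at a time, mt-Cytb ranged over -0.21 to 0.0345 (highest without WT_hM4D library 1) and Csrnp1 over -0.0048 to 0.0822 (lowest without WT_hM4D library 2). Of 684 list medians, 21 moved beyond the spread between libraries, in 15 lists, and 23 of 38 lists kept the sign of their median in every setting tried. The cause of these shifts was not tested. Each library held 136604299 counts or more, but some named genes had low counts, Cxcl10, Ciita, Gm10093 and Gm26783 among them.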
